A study of Mus musculus with 9 samples.

Results

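The H2-M genes are non-classical class I genes of the mouse major histocompatibility complex (MHC) on chromosome 17. They were followed here in the nasal mucosa of BALB/c mice, an inbred strain. The genes are the 6 H2-M10 genes (H2-M10.1 to H2-M10.6), H2-M1, H2-M9, H2-M2 and H2-M3, which are 10 of the 19938 genes that a probe set of their own represents on the Affymetrix Mouse Gene 1.0 ST array. They were selected by gene symbol, and each had exactly 1 probe set naming no other gene, so no choice between probe sets had to be made. The family was taken up because H2-M10.3 was already known from these data to be higher after ovalbumin. For that reason its differences between the groups are given as a description with no p-value. The choice also biases its intervals and calls, which are printed as a description only and support nothing further. The study had 3 groups of 3 arrays, all of animals labelled Male and 6 to 8 weeks old, with no transgene or mutation in the labels. The control animals received saline for both sensitisation and challenge. The OVA animals received ovalbumin, an egg white protein used as allergen, for both, and were killed 2 hours after the final challenge. The 4w-after animals had the same ovalbumin regimen, and tissue was taken 4 weeks after the final challenge. The labels do not give the route, dose or number of challenges, nor whether the 3 arrays of a group stand for 3 animals. The p-values therefore cover only the differences among these samples, which may in part be technical.

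Classical class I molecules present peptides to CD8 T cells, whereas most H2-M molecules have other or unknown roles. H2-M10, H2-M1 and H2-M9 genes are known from basal neurons of the vomeronasal organ, the pheromone-sensing organ in the nose, where they are expressed in combinations with V2R pheromone receptors. H2-M3 differs from them: it is broadly expressed and presents N-formylated peptides of bacteria and mitochondria to T cells.

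The H2-M10 genes are close copies of each other, and the sequence before their start sites shows how close. Aligned over the 250 bases before the start, the promoters of the 6 H2-M10 genes were 78.4% to 94.6% identical in 15 pairs. The promoter of H2-M10.3 was nearest to that of H2-M10.5 (94.6%), then to H2-M10.4 (89.2%), H2-M10.1 and H2-M10.6 (86.9% each) and H2-M10.2 (79.8%). Against H2-M1 and H2-M9 the H2-M10 promoters were 65.9% to 73.1% identical, and H2-M1 and H2-M9 were 92.6% identical to each other. The stretches below are RefSeq sequence of assembly GRCm38.p6, 125 bases each, printed 5′ to 3′ on the strand of the gene. The identities, motifs and stretches are all of this reference. The promoters of the BALB/c animals were not read here and may differ from it. All 10 members matched the RefSeq promoter table. The stretches are printed so that the copies can be compared. H2-M10.3 was chosen for its high OVA values, and whether the genes differ in their change was not tested. Nothing about the changes is read from the promoters. Capitals mark CCAAT boxes and the TATA box (the letters TATAAA) on the printed strand only, and CCAAT on the other strand, which reads attgg here, is left in lower case. H2-M10.3 is at chr17:36368423-36368547 (minus strand), H2-M10.5 at chr17:36772774-36772898 (plus), H2-M10.6 at chr17:36812041-36812165 (plus), H2-M10.4 at chr17:36462342-36462466 (minus), H2-M10.1 at chr17:36326162-36326286 (minus), H2-M10.2 at chr17:36286429-36286553 (minus) and H2-M1 at chr17:36672209-36672333 (minus).
H2-M10.3: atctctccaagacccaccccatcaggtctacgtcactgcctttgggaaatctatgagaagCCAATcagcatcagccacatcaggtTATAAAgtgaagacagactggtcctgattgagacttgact
H2-M10.5: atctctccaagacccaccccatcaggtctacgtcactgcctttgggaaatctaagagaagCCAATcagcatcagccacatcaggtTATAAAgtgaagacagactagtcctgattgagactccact
H2-M10.6: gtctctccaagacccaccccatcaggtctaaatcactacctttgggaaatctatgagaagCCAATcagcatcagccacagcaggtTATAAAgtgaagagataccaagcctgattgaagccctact
H2-M10.4: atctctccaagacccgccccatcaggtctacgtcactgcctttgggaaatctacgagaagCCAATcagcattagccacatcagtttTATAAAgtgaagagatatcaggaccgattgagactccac
H2-M10.1: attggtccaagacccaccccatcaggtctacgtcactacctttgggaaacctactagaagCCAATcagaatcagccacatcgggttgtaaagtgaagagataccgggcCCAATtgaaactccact
H2-M10.2: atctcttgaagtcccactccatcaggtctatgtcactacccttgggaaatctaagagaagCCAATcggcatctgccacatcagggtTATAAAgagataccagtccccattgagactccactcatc
H2-M1: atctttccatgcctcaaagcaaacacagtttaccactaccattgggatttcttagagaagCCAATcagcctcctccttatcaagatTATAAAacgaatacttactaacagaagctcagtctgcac

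In 5 of the 6 H2-M10 promoters and in H2-M1 and H2-M9, TATAAA began 25 or 26 bases after the start of a CCAAT, and H2-M10.1 had no TATAAA. Motifs were searched on both strands of the 250 bases before the start, each on its own, so that matches of different motifs may overlap. CCAAT was found in 10 of 10 members and in 33.8% of 32851 promoters of the same length. TATAAA was found in 7 of 10 members and in 12.4% of promoters. CCCNNGGG, a core of early B cell factor (Ebf) sites, was in H2-M10.2, H2-M1 and H2-M9 and in 11.8% of promoters. TGACGTCA (cyclic AMP response element, 1.55% of promoters) and TAATTA (homeodomain, 4.84%) were in 0 of 10 members. The core of the interferon-stimulated response element (2.98% of promoters) and the NF-kappaB site (0.356%) were also in 0 of 10 members. Copies of a gene share their motifs by descent, so these counts are not independent of each other.

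Before the results, 1 fact about the arrays bears on every difference from the control arrays. The 3 arrays labelled control had a mean Xist level of 10.81, against 4.29 in OVA and 4.33 in 4w-after, and a mean level of Eif2s3y, a Y-linked gene, of 3.31, against 8.28 and 8.25 (all log2). These arrays therefore go against their label Male, and treatment and this pattern cannot be told apart in either comparison with control. Only OVA and 4w-after share the pattern. The tissue label was met by Omp, the marker of mature olfactory neurons, at 11.47 to 12.43 on the 9 arrays. The array medians were 6.38 to 6.45, the correlation across genes between arrays of 1 group was 0.986 to 0.992, and 3 arrays per group limit the precision of every value. No detection calls come with the values, so signal over background is unknown. Most H2-M values lie low in the range of 1.63 to 13.8 over the table. Since the tissue was taken in bulk, fewer cells of a type and less RNA per cell cannot be told apart.

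H2-M10.3 was the member that differed most between arrays, with a range of 3.17 log2 units over the 9. Its level was 5.46, 6.02 and 7.13 on the control arrays, 8.46, 8.40 and 8.63 on the OVA arrays and 7.92, 7.65 and 7.67 on the 4w-after arrays. All OVA arrays lay above all 4w-after arrays, which lay above all control arrays, and the control arrays were the most scattered. The means were 6.20 ± 0.85, 8.50 ± 0.12 and 7.75 ± 0.15 (SD, n = 3). The OVA mean was 2.30 log2 units above control (95% interval 1.53 to 3.06), which is 4.91-fold, and the 4w-after mean was 1.54 above it (0.78 to 2.31), which is 2.92-fold. Both differences share the control arrays. With 1 array left out the differences ranged from 1.92 to 2.76 in OVA and from 1.17 to 2.01 in 4w-after. In OVA against control H2-M10.3 was no longer among the called probe sets without control replicate 2 (2.20), OVA replicate 1 (2.31) or OVA replicate 3 (2.23). In 4w-after against control it was not among them without control replicate 2 (1.45), 4w-after replicate 1 (1.46) or 4w-after replicate 2 (1.59).

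H2-M10.6, a close copy of H2-M10.3, had the same order of group means on a smaller scale. Its level was 3.13, 3.86 and 3.56 on the control arrays, 4.42, 4.35 and 4.38 on the OVA arrays and 4.01, 4.05 and 3.85 on the 4w-after arrays. The OVA arrays lay above all others, while the lowest 4w-after array (3.85) lay just under the highest control array (3.86). H2-M10.6 rose in OVA by 0.87 log2 units over control (SE 0.16, interval 0.51 to 1.22, 1.82-fold, adjusted p = 0.0383, limma). The call was lost in 7 of 9 fits with 1 array left out, with changes of 0.67 to 1.04 and an adjusted p (limma) of up to 0.129. It was kept only without control replicate 1 or control replicate 2. Any of the other arrays ended it: control replicate 3 (0.89), OVA replicate 1 (0.85), 2 (0.88) or 3 (0.87), or any 4w-after array (0.87 each). It was also lost with every row of the table tested, with the replicate block and with only the 2 groups compared.

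H2-M10.5, whose promoter is the nearest to that of H2-M10.3, had levels of 4.53, 4.67 and 4.82 on the control arrays, 4.82, 5.39 and 5.66 in OVA and 5.27, 4.65 and 4.36 in 4w-after. OVA replicate 1 was level with the highest control array, and the 4w-after arrays reached from below the lowest control array to above the highest, but not to the 2 highest OVA arrays. The OVA mean was 0.62 log2 units above control (interval 0.03 to 1.20), which did not pass after adjustment (adjusted p = 0.283, limma).

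The 3 other H2-M10 genes, H2-M10.1, H2-M10.2 and H2-M10.4, did not pass in any comparison. H2-M10.1 was at 3.59, 3.59 and 3.67 on the control arrays, 3.66, 3.59 and 3.73 in OVA and 3.41, 3.33 and 3.59 in 4w-after. H2-M10.2 was at 5.52, 5.39 and 5.63, then 5.34, 5.54 and 5.83, then 5.53, 5.73 and 5.79 in the same order. H2-M10.4 read 4.62 on every control array, and the deposited value was identical on these 3 arrays and 1 other. For the OVA comparison the changes were 0.04 (interval -0.14 to 0.22), 0.06 (-0.23 to 0.35) and 0.07 (-0.20 to 0.34) for H2-M10.1, H2-M10.2 and H2-M10.4. H2-M10.3 was chosen for its high OVA values, so these intervals are not set against its own, and the difference between the genes was not tested. Probe sequences were not used here, so how far the probe sets of these near-identical genes also take up RNA of their copies was not tested, and each H2-M10 value is uncertain to that extent.

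H2-M1 and H2-M9 belong to the group known from vomeronasal neurons, and neither passed in any comparison. H2-M1 was at 3.71, 3.77 and 4.52 on the control arrays, 3.36, 3.60 and 3.69 in OVA and 3.82, 3.62 and 3.51 in 4w-after. Its OVA arrays lay just below its control arrays, with a change of -0.45 (interval -0.90 to 0.01, adjusted p = 0.319, limma), which is opposite in sign to H2-M10.3. H2-M9 was at 5.06, 4.82 and 4.85, then 4.72, 5.27 and 5.09, then 4.71, 4.82 and 4.55, and its groups overlapped between control and OVA (change 0.12, interval -0.20 to 0.43).

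H2-M2, a class I gene at the far end of the region, was at 4.07, 4.06 and 4.13 on the control arrays, 3.84, 3.99 and 4.00 in OVA and 3.88, 4.04 and 4.13 in 4w-after. H2-M3, the presenter of N-formyl peptides, was at 5.58, 5.35 and 5.20, then 5.41, 5.35 and 5.52, then 5.17, 5.48 and 5.31. Its groups overlapped in every comparison. For H2-M3 the intervals of the change were -0.21 to 0.31 in OVA and -0.32 to 0.20 in 4w-after, both against control.

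**Figure D1:**
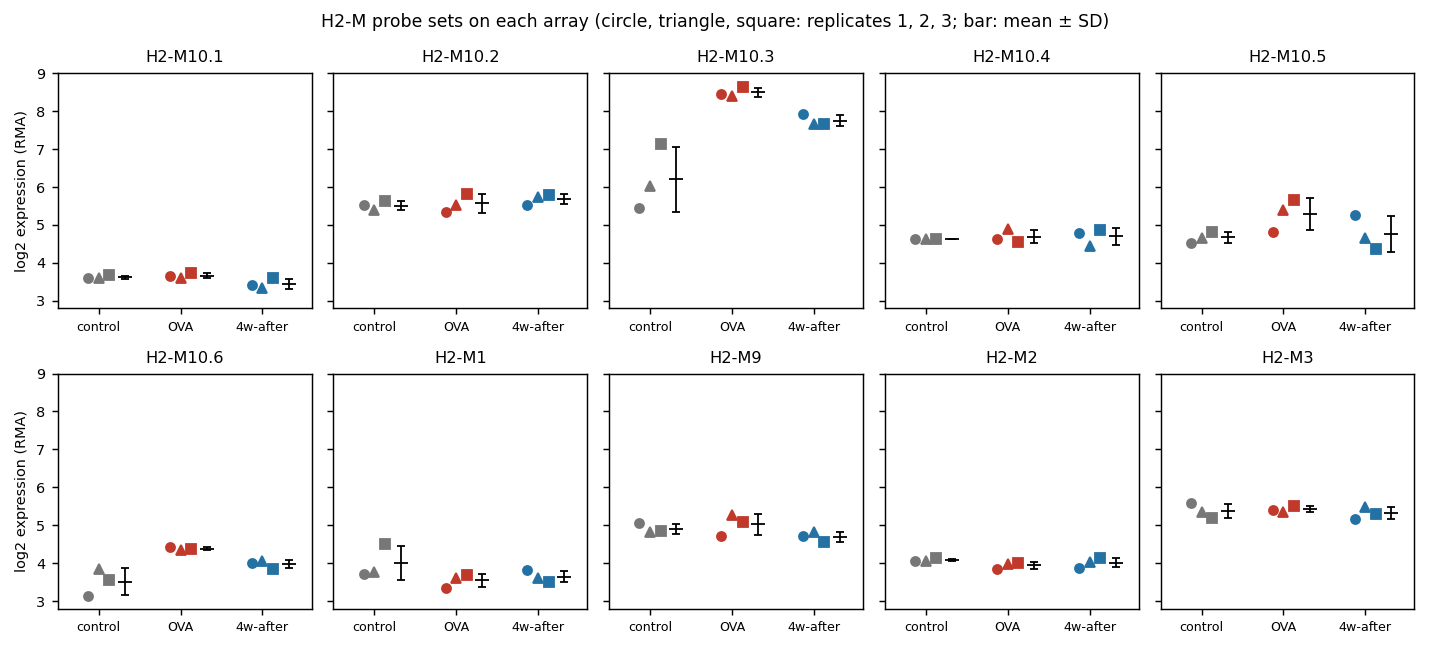
Log2 expression (vertical axis, RMA values) of each H2-M probe set on the 9 arrays by group, with symbols for replicates 1, 2 and 3 and a bar for the mean ± SD. H2-M10.3 separates the 3 groups (6.20, 8.50 and 7.75 on average), H2-M10.6 separates OVA from both others, the control arrays of H2-M1 and H2-M2 lie just above their OVA arrays, and the remaining 6 members overlap between control and OVA.

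The first comparison asked what differed 2 hours after ovalbumin challenge. Of the 10 members, 2 were called higher (H2-M10.3 and H2-M10.6) and 0 lower, at an adjusted p under 0.05 over all 23410 probe sets tested (limma). Of all probe sets, 0.782% were called higher and 1.3% in either direction. Since H2-M10.3 led to the choice of the family, nothing is read from this count. The median change was 0.07 over the 10 members and 0.34 over the H2-M10 genes, beside -0.017 over all probe sets tested. All 6 H2-M10 genes had a positive change, from 0.04 to 2.30. H2-M10.1, H2-M10.2 and H2-M10.4 had only 0.04, 0.06 and 0.07, none passing. With 1 array left out, H2-M10.2 and H2-M10.4 reached -0.07 and -0.03. The H2-M10 median and range include H2-M10.3, so no rise of the family is read from them. At an unadjusted p under 0.05 there were 3 members, H2-M10.5 besides the 2 called, and 16.4% of all probe sets. For H2-M1 and H2-M2 all OVA arrays lay below all control arrays, and neither passed. The share of all probe sets with groups apart in this way is not given, so nothing is read from any such separation.

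The second comparison, 4w-after against OVA, asked what differed after 4 weeks without allergen. It is the comparison in which both groups share the sex-linked pattern. All groups carry the same age label of 6 to 8 weeks, so age when the tissue was taken is not resolved. It cannot be told apart from the 4 weeks without allergen. The single control group cannot match both the OVA and the 4w-after time. Of the 10 members, 0 were called (limma), while 6.33% of all probe sets were, 3.81% higher and 2.51% lower. At an unadjusted p under 0.05 there were 3 members, H2-M10.1, H2-M10.6 and H2-M9, and 23.9% of probe sets. H2-M10.3 had a change of -0.75 (interval -1.52 to 0.02, 1.68-fold lower) and was not called. It led to the choice of the family through its high OVA values, so a lower value in 4w-after is favoured by that choice. H2-M10.6 had a change of -0.41 (-0.77 to -0.06, adjusted p = 0.149, limma) and H2-M10.1 of -0.22 (-0.40 to -0.04, adjusted p = 0.14, limma). For H2-M10.3, H2-M10.6 and H2-M10.1 the 4w-after arrays all lay below the OVA arrays. For H2-M10.1 this was by less than the printed digits, with 3.59 on the highest 4w-after and on the lowest OVA array. H2-M10.5 and H2-M9 had changes of -0.53 and -0.33 with overlapping groups. The calls depended on single control arrays, which enter through the shared estimate of the spread. Without control replicate 3, H2-M10.3 was called, and without control replicate 1, H2-M10.6 passed (adjusted p = 0.0463, limma). With only the 2 groups in the fit both were called, H2-M10.6 at an adjusted p of 0.0404 (limma). For H2-M10.3 these calls are a description, for the reason given above.

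The third comparison asked what still differed from saline after 4 weeks, and it shares the control arrays with the first. H2-M10.3 was the 1 member called higher (limma) and 0 were called lower, while 7.92% of all probe sets were called higher and 14.4% in either direction. A count of 1 in 10 is near this background, and nothing is read from it. At an unadjusted p under 0.05 there were 2 members and 32.9% of probe sets. H2-M10.6 had a change of 0.45 (interval 0.10 to 0.80, adjusted p = 0.0823, limma). Without control replicate 2 it passed (0.62, adjusted p = 0.0303, limma), and without control replicate 1 the change was 0.26 (adjusted p = 0.139, limma). H2-M10.5 had a change of 0.09 and H2-M1 of -0.35, neither passing. The median change was 0.01 over the 10 members, beside -0.041 over all probe sets. The OVA and 4w-after changes of H2-M10.3 against control were thus 2.30 and 1.54, those of H2-M10.6 0.87 and 0.45, and those of H2-M10.5 0.62 and 0.09.

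**Figure D2:**
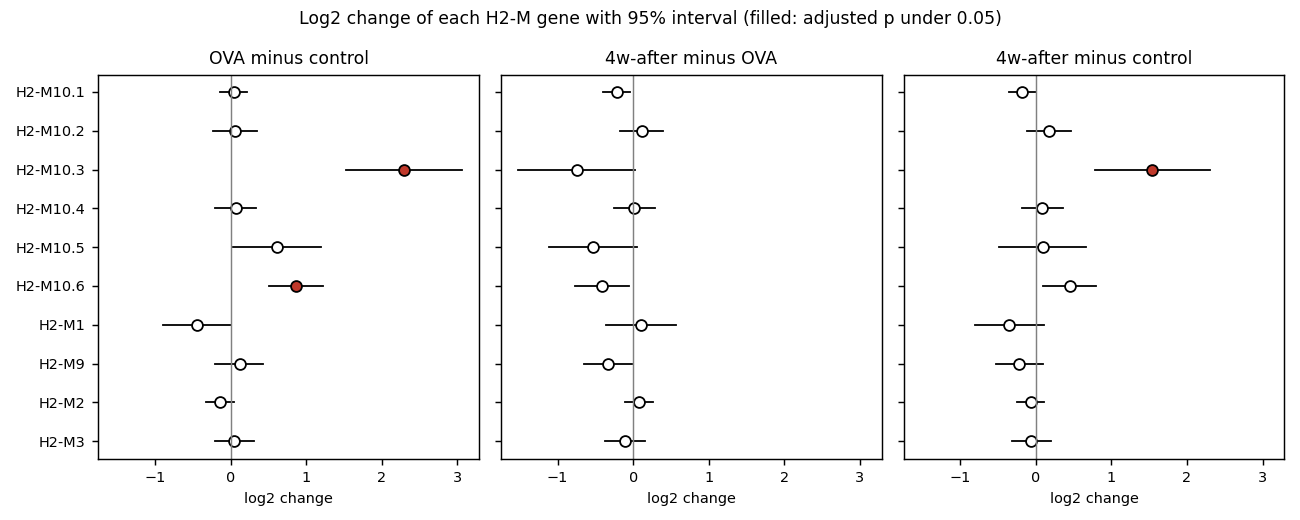
Log2 change (horizontal axis) of the 10 members in the 3 comparisons, with 95% intervals from the limma fit and filled points for an adjusted p under 0.05. The filled points are H2-M10.3 and H2-M10.6 in OVA minus control and H2-M10.3 in 4w-after minus control, and no point is filled in 4w-after minus OVA.

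**Figure D3:**
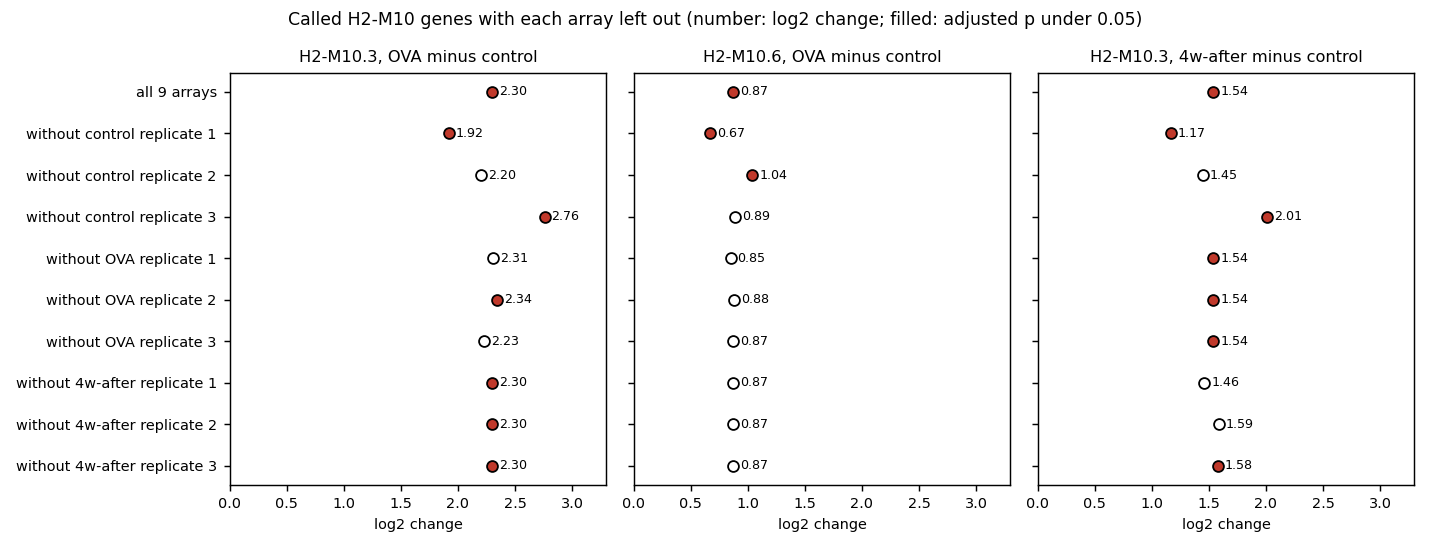
Log2 change (horizontal axis, printed beside each point) of the called H2-M10 genes with all 9 arrays and with each array left out, filled where the adjusted p of that limma fit was under 0.05. H2-M10.3 stays between 1.92 and 2.76 in OVA and between 1.17 and 2.01 in 4w-after, and H2-M10.6 between 0.67 and 1.04.

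H2-M10 genes are known from basal vomeronasal neurons, of which 9 markers were measured. In OVA against control 1 was called higher (Gng8, a G protein gamma subunit of immature and vomeronasal neurons), beside 0.782% of all probe sets, and the median change was 0.03. Gnao1, the G protein alpha subunit of basal neurons, was at 10.15, 10.25 and 10.54 on the control arrays, 10.29, 10.45 and 10.29 in OVA and 10.39, 10.07 and 9.82 in 4w-after. Tfap2e, a transcription factor of these neurons, had a change of -0.08 in OVA, and Vmn2r1, a V2R co-receptor, of 0.14, neither passing. Calr4, a chaperone of vomeronasal neurons, was at 4.14, 4.11 and 4.92, then 4.60, 6.15 and 5.74, then 5.99, 4.39 and 4.51. As with H2-M10.5, 2 OVA arrays and 4w-after replicate 1 were its highest. In 4w-after against control, 2 of the 9 were lower, beside 6.45% of all probe sets, Bcl11b (-0.44, adjusted p = 0.0353, limma) and Kirrel3 (-0.68, adjusted p = 0.0191, limma).

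Among the V2R receptors, the pheromone receptors with which H2-M10 is co-expressed, 0 of 46 were called in OVA against control, beside 1.3% of all probe sets. At an unadjusted p under 0.05 there was 1, beside 16.4%. In 4w-after against OVA 0 were called (limma), beside 6.33% of all probe sets, with 2 at an unadjusted p under 0.05, beside 23.9%. Against control 1 was lower, Vmn2r110 (-0.59, adjusted p = 0.0278, limma), beside 6.45% of all probe sets. Their median change was 0.03 in OVA, and their median level on an array was 3.12 to 3.61, so most V2R probe sets read low on every array. The V1R receptors of the apical neurons gave 0 of 117 called in OVA against control (limma, 6 at an unadjusted p under 0.05). In 4w-after against control 3 of them were lower, and so was 1 of 7 other apical markers, both beside 6.45% of all probe sets. None of these counts is read as a result. The vomeronasal gland genes Lcn3 and Lcn4 spread widely within groups and none passed. Lcn4 was at 12.15, 9.56 and 8.82 on the control arrays, 12.35, 12.12 and 12.09 in OVA and 11.97, 12.62 and 8.61 in 4w-after. Control replicate 3 and 4w-after replicate 3, lowest in Lcn4, read 7.13 and 7.67 for H2-M10.3, the former being the highest control value. Other markers ran the other way. With each group's mean subtracted, Pearson's r with H2-M10.3 over the 9 arrays was -0.50 for Lcn4 and -0.48 for Lcn3. It was 0.94 for Kirrel2, an apical marker, and 0.77 for Kirrel3, 0.64 for Gnao1, 0.45 for Calr4 and 0.25 for Vmn2r1. For Omp it was 0.60. These r values are a description. The part of tissue composition in the H2-M10.3 difference was not tested.

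Markers of immature olfactory neurons, the young neurons that renew the olfactory epithelium, included several that differed from control in the same direction as H2-M10.3. Of 13 measured, 6 rose and 0 fell in OVA against control (median 0.51), beside 0.782% of all probe sets called higher. In 4w-after against control 6 rose (median 0.34), beside 7.92%. Nhlh1, which encodes a transcription factor of young neurons, was at 5.99, 5.81 and 6.44 on the control arrays, 7.90, 7.87 and 7.45 in OVA and 7.70, 7.43 and 7.23 in 4w-after. It rose by 1.66 in OVA (adjusted p = 0.00833, limma) and 1.37 in 4w-after (adjusted p = 0.004, limma). Sox11 rose by 1.22 and 1.08, Stmn1, a microtubule regulator, by 1.05 and 0.89, Dpysl3 by 0.73 and 0.69, and Gap43, a growth cone protein, by 0.51 and 0.38. Other markers of the list did not follow. Lhx2 had changes of -0.00 in OVA and -0.50 in 4w-after, Dpysl5 of 0.09 and -0.22, and Neurog1 of 0.27 and 0.12, none of them passing. Between OVA and 4w-after 1 of the 13 was called, Gng8, which was lower in 4w-after (-0.48, adjusted p = 0.0391, limma), beside 2.51% of all probe sets. Gng8 was also 0.70 higher in OVA than in control (adjusted p = 0.0234, limma) and 0.23 higher in 4w-after (adjusted p = 0.189, limma), the same order of groups as H2-M10.3 and H2-M10.6. The summed linear level of the list was 4063 to 4929 on the control arrays, 5291 to 5899 in OVA and 4695 to 5679 in 4w-after. With each group's mean subtracted, Pearson's r with H2-M10.3 over the 9 arrays was -0.48 for Sox11, -0.26 for Dpysl3 and -0.16 for Gap43. It was 0.17 for Stmn1, 0.42 for Gng8 and 0.55 for Nhlh1. The shared direction is thus one of group means, and not all of these markers followed H2-M10.3 within groups. Of 15 mature neuron markers, 0 were called in OVA against control (limma), with 4 at an unadjusted p under 0.05, and Omp had a change of -0.44 (adjusted p = 0.208, limma). In 4w-after against control Gnal (-0.44) and Rtp1 (-0.63) were lower, beside 6.45% of all probe sets, and S100a5 (0.35) was higher, beside 7.92%. S100a5 was also higher in 4w-after than in OVA (0.52, adjusted p = 0.0196, limma), beside 3.81%. The part of these neurons in the H2-M10.3 difference was not tested, and the sex-linked pattern of the control arrays moves with both.

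**Figure D4:**
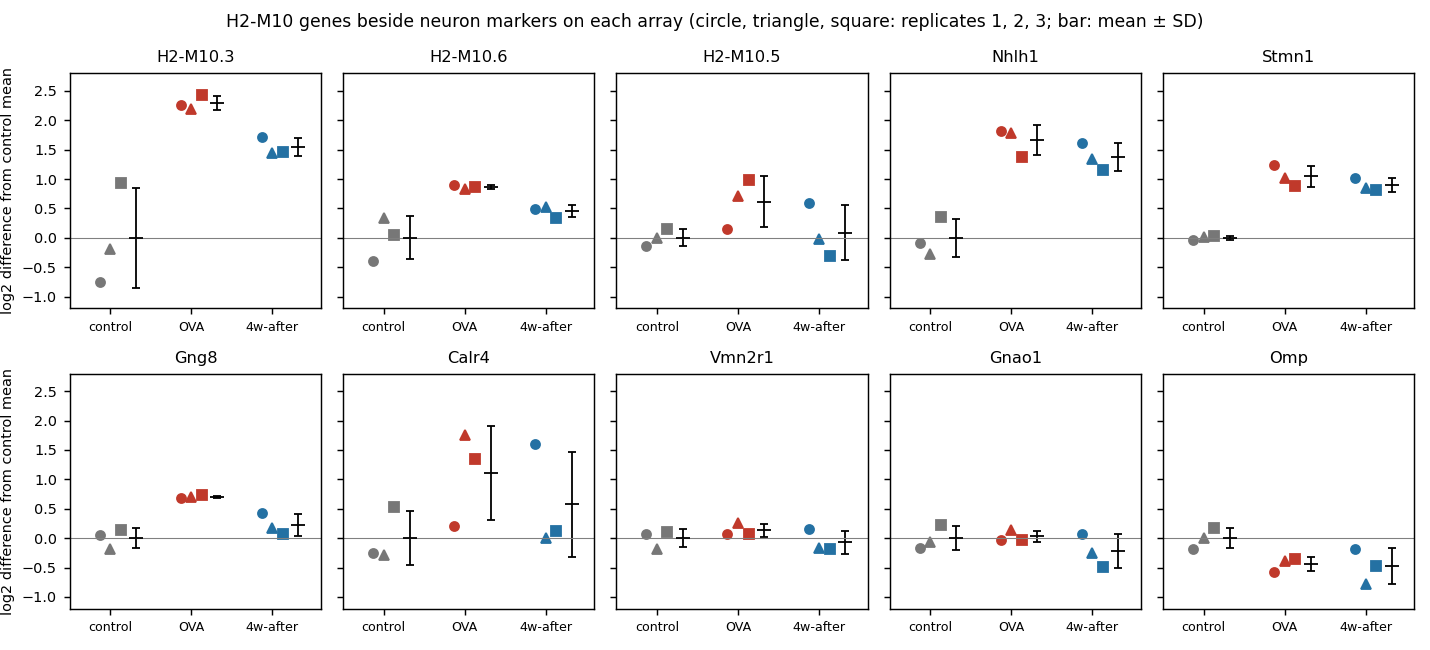
Log2 difference from the control mean (vertical axis) on each array for H2-M10.3, H2-M10.6 and H2-M10.5 beside 7 neuron markers, with symbols for replicates and a bar for the mean ± SD. Nhlh1 and Stmn1 are higher on every OVA and 4w-after array, Gng8 is highest in OVA, and Gnao1 and Vmn2r1 have OVA changes of 0.03 and 0.14.

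Genes with the array pattern most like that of H2-M10.3 were sought among 1658 genes with a range of at least 1 log2 unit over the 9 arrays, by Pearson's r over these arrays. The arrays fall into groups, so r mostly measures the likeness of group means, and it is a description. The 8 most alike were Gng3 (r = 0.960), Epha7 (0.955), Nhlh1 (0.931), Calb2 (0.928), Nr4a1 (0.902), Tubb2b (0.899), Stmn1 (0.895) and Cnpy1 (0.889). Of these, Nhlh1, Tubb2b, Stmn1 and Cnpy1 were called higher in both comparisons with control, beside 0.782% and 7.92% of all probe sets. The 8 genes were picked for likeness to H2-M10.3, so their direction against control follows largely from that choice. Nothing is read from their calls. Tubb2b, a tubulin of developing neurons, rose by 1.01 and 0.84, and Cnpy1 by 0.71 and 0.48. Gng3, another G protein gamma subunit, had changes of 0.81 and 0.57 that did not pass. For the mean of the 6 H2-M10 genes, Calb2 (calretinin, a calcium-binding protein, r = 0.967) and Gng3 (0.950) came first, followed by Rpph1, Cnpy1, Epha7, Rnf19b, Insm1 and Cebpd (0.910 to 0.870). H2-M10.3 has the widest range of the 6 (3.17 log2 units, the next being H2-M10.5 at 1.30) and weighs most in this mean. The second search is therefore not independent of the first.

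Of the other MHC, antigen presentation and interferon genes described next, 0 were called in OVA against control (limma), a count near the 1.3% of all probe sets called. Of 18 class I heavy chain genes listed, only 8 had a probe set of their own, and the classical genes H2-K1 and H2-D1 were not among them. Of the 8 measured, 0 were called in any comparison (limma), with 2, 0 and 1 at an unadjusted p under 0.05. H2-M11 and H2-M5, the H2-M genes outside the 10, had changes of -0.33 and -0.28 in OVA, with all OVA arrays below the control arrays and neither passing. B2m, the light chain that class I molecules need at the cell surface, had changes of -0.09 in OVA and 0.26 in 4w-after against control. Among 16 genes of peptide loading, 0 were called in OVA (limma), where 7 had an unadjusted p under 0.05, beside 16.4% of all probe sets. In 4w-after against control 4 of the 16 rose, beside 7.92% of all probe sets. These were the chaperones Pdia3 (0.72), Canx (0.41) and Calr (0.44) and the proteasome activator Psme2 (0.45). Of 11 interferon response genes, which often move with class I genes, 0 were called in OVA (limma, 1 at an unadjusted p under 0.05), and 1, Rsad2, rose in 4w-after against OVA (0.72, adjusted p = 0.0416, limma) and against control (0.74, adjusted p = 0.0229, limma). Of 10 class II genes 0 were called in OVA (limma, 4 at an unadjusted p under 0.05) and 1, H2-DMa, was lower in 4w-after than in control (-0.46). Of 9 class I-like genes outside the MHC, Hfe (-0.41) and Procr (-0.29) were lower in 4w-after than in control. Beside these calls, 3.81% of all probe sets were called higher in 4w-after against OVA, and 7.92% higher and 6.45% lower against control.

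Markers of immune cells were counted in the same way. Of all probe sets, 1.3% were called in OVA, and 7.92% were higher and 6.45% lower in 4w-after, each against control. At an unadjusted p under 0.05 there were 16.4%, 23.9% and 32.9% of probe sets in the 3 comparisons in order. Of 13 T and NK cell markers, 0 were called in OVA (limma, 2 at an unadjusted p under 0.05) and Cd5 was lower in 4w-after than in control (-0.35). Of 6 B and plasma cell markers, Jchain, the joining chain of secreted antibodies, rose in 4w-after against control (2.31, adjusted p = 0.00919, limma), and in OVA its change was 1.76 (adjusted p = 0.0818, limma). Macrophage and dendritic cell markers gave 0 of 13 called in OVA (limma, 2 at an unadjusted p under 0.05), and Zbtb46 was lower in 4w-after than in control (-0.28, adjusted p = 0.0471, limma). The lists of 7 sustentacular and 8 respiratory epithelium genes had 0 called in every comparison (limma), with 2, 3 and 4 and with 2, 0 and 1 genes at an unadjusted p under 0.05.

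The H2-M genes lie in a stretch of chromosome 17 that also holds Trim and olfactory receptor genes. Between H2-M10.2 and H2-M2 the RefSeq table lists 78 genes, of which 41 had a probe set of their own, the 10 members among them. In the order of these 41, H2-M10.2, H2-M10.1, H2-M10.3 and H2-M10.4 come 1, 2, 3 and 4 in the row, and H2-M10.5 and H2-M10.6 come 8 and 9. The called genes H2-M10.3 and H2-M10.6 are thus not neighbours, and H2-M10.1 and H2-M10.4, on either side of H2-M10.3, had OVA changes of 0.04 and 0.07. Of the 31 other genes 0 were called higher in OVA and 3 lower (0.521% of all probe sets), with a median change of -0.17. The 3 were the olfactory receptors Olfr95 (-0.83, adjusted p = 0.0446, limma), Olfr96 (-0.62, adjusted p = 0.0255, limma) and Olfr103 (-0.63, adjusted p = 0.0186, limma), each opposite in sign to H2-M10.3. In 4w-after against control 10 of the 31 were lower (6.45% of all probe sets) and 0 higher, of which 8 were among the 15 olfactory receptors and the others were Trim31 and Gabbr1. In 4w-after against OVA 0 were called (limma), with 7 of the 31 at an unadjusted p under 0.05, beside 23.9% of all probe sets.

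**Figure D5:**
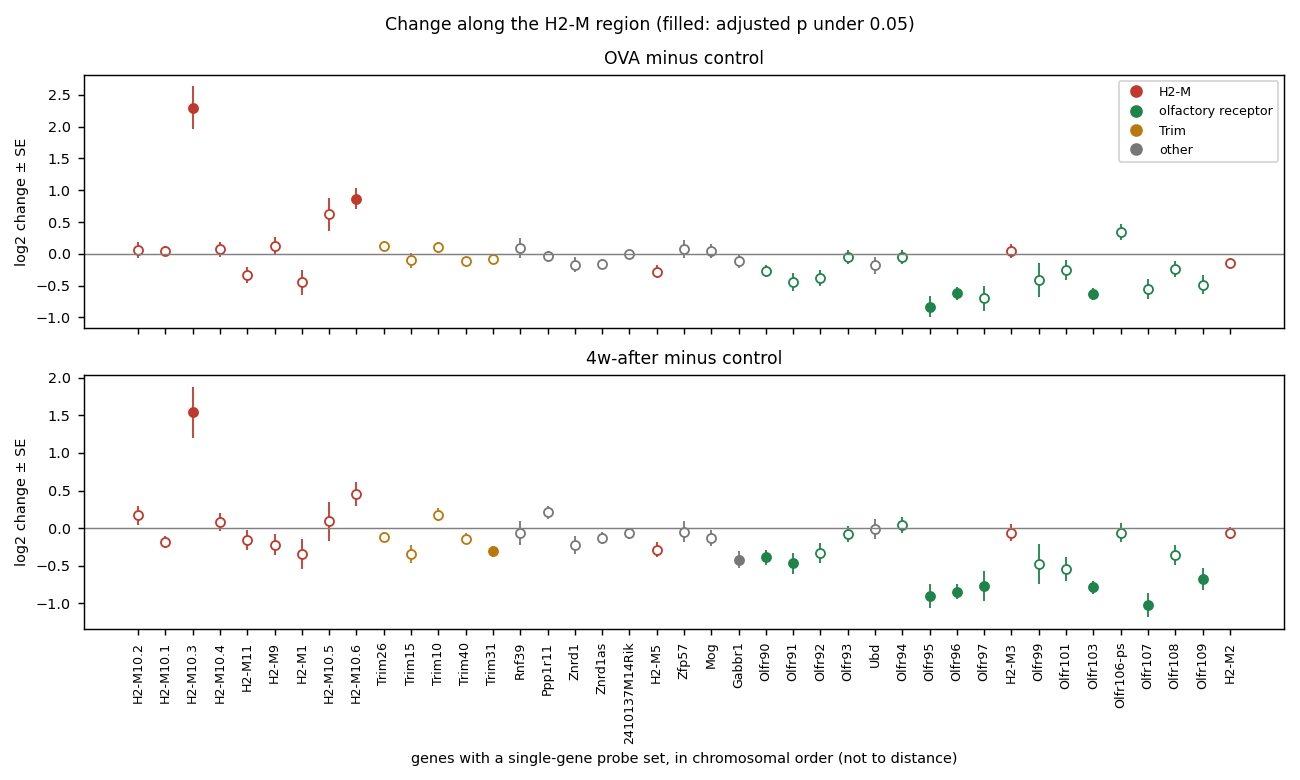
Log2 change ± SE (vertical axis) of the 41 genes of the H2-M region with a probe set of their own, in chromosomal order and not to distance, for OVA and for 4w-after against control, coloured by gene family and filled where the adjusted p was under 0.05. H2-M10.3 has the highest points, at 2.30 and 1.54, and the filled olfactory receptor genes all lie below 0.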

How the data were processed

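Each sample of nasal mucosa RNA was run on its own Affymetrix Mouse Gene 1.0 ST array, per the labels. The authors made the deposited table with RMA, per the submitters' processing notes, and its log2 scale was read from the values. The RMA software, version and summary level were not given in the sources used here. Of 35556 rows, the 23410 with a gene symbol in the platform annotation were tested: 21789 name 1 gene and 1621 name several and are not reported by name.

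The groups came from the labels. A single limma model (version 3.58.1, R 4.3.3, default eBayes) held the 9 arrays with 1 mean per group, 6 residual and 2.98 prior degrees of freedom. The two-sided p-values were adjusted by Benjamini-Hochberg over all 23410 probe sets within a comparison, and those under 0.05 are "called" in the text. The fit was tested on simulated data. Lists are described by counts and medians, with no set test.

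The members and lists were chosen with earlier results of these data known. Named are all members, up to 4 genes per list with the smallest p in each comparison, preset marker genes, the 8 genes most like H2-M10.3 and the 8 most like the H2-M10 mean, and up to 4 genes between the members per comparison. The likeness of Calr4 to H2-M10.5 was described after its values were seen. The alternatives were other scalings, filters, rows, priors, the replicate number as a block, and each array left out.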

Additional observations from a re-analysis of the deposited data

How the results depend on the processing

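Leaving out each array in turn gave 270 values for the members and comparisons, of which 241 kept their direction and side of the threshold. The other settings gave 213 values, of which 204 did. Most of these values belong to members that were not called, so the shares say little about the calls. With 1 array left out, the call of H2-M10.6 in OVA minus control was lost in 7 of 9 fits. That of H2-M10.3 was lost in 3 of 9 fits in each comparison with control. With only the 2 groups compared, the probe sets called were 109 in OVA minus control, 737 in 4w-after minus OVA and 2054 in 4w-after minus control, and the members called were 0 higher, 2 lower and 0 higher. The adjusted p (limma) was then 0.0937 for H2-M10.6 in the first. Testing every row gave 143 probe sets and 1 member called higher in OVA minus control, with H2-M10.6 at 0.0756. The upper 60% of probe sets by mean held only H2-M10.3 of the members, so 1 was called. With 1 probe set per gene, 946 were called in 4w-after minus OVA.

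With 1 array left out, OVA minus control had 63 to 305 probe sets and 0 to 2 members called higher, 4w-after minus OVA had 446 to 1361 probe sets and 0 to 1 members called lower, and 4w-after minus control had 1560 to 2966 probe sets and 0 to 1 members called higher. Directions turned for changes near 0. In OVA minus control these were H2-M10.2 (-0.07 to 0.18), H2-M10.4 (-0.03 to 0.13), H2-M9 (-0.01 to 0.27) and H2-M3 (-0.04 to 0.15). In 4w-after minus OVA they were H2-M10.2 (-0.01 to 0.24) and H2-M10.4 (-0.07 to 0.14), and in 4w-after minus control H2-M10.5 (-0.17 to 0.29) and H2-M3 (-0.15 to 0.04). Quantile normalization turned H2-M2 (0.05) and H2-M3 (0.04) in 4w-after minus control. The cause of these changes was not tested.

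Same-numbered arrays deviated together in 5 of 9 pairs (r over 0.1, range -0.044 to 0.332), and 4 of 9 arrays correlated best with their own number, so the numbers were not taken as pairs. The replicate block gave 213 probe sets and 1 member called higher in OVA minus control, where H2-M10.6 had an adjusted p (limma) of 0.0549. Every member has 1 probe set, so the mean over several probe sets could not be tried. Signal over background is unknown, which limits the members with low values.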
